A study of Mus musculus with 8 samples.

Results

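The transforming growth factor beta (TGF-beta) pathway was followed in antigen-specific mouse CD4 T cells through 9 genes: the ligand gene Tgfb1, the receptor genes Tgfbr1 and Tgfbr2, the signal carriers Smad2, Smad3 and Smad4, the inhibitory Smad gene Smad7, and the corepressor genes Ski and Skil. They were taken by name from 39179 genes counted, and all 9 were found and passed the filter on low counts. The 8 libraries form 4 groups of 2. Follicular helper T cells (Tfh, which help B cells) and other activated helper cells (non-Tfh) each carried an inducible vector for Bach2, a DNA-binding repressor of lymphocyte genes, or an empty vector.

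All 4 groups share one origin, per the labels' protocols. Smarta TCR-transgenic mice, whose receptor sees the peptide GP61-80, were crossed to CreERT2 mice, and their T cells were transduced by retrovirus and put into C57BL/6 hosts. The hosts were immunized under the skin with nitrophenol and that peptide on mouse serum albumin. Tamoxifen, which switches the vector on, was injected on day 5, and pooled inguinal lymph nodes were taken 18 hours later, on day 6. The sort took Thy-1.1+ CD44hi cells that were CXCR5+ PD-1+ (Tfh) or CXCR5- PD-1- (non-Tfh). The labels give no age and do not say whether replicates were separate animals, so p-values measure only the spread between these samples, which may be technical. The hosts were not depleted of their own cells as far as the labels say, and the empty vector libraries received tamoxifen too.

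TGF-beta binds a receptor complex in which TGFBR2 phosphorylates TGFBR1, which in turn phosphorylates SMAD2 and SMAD3. These join SMAD4 and act on target genes in the nucleus, while SMAD7 blocks the receptor and SKI and SnoN (the product of Skil) hold SMAD target genes silent. Smad7 and Skil are also well-known targets of the pathway, and in T cells TGF-beta is known for restraining effector differentiation and for inducing regulatory and tissue-resident features.

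Library totals were 7862879 to 9889859 counts, and levels are given as CPM, counts scaled to library size with trimmed mean of M-values factors. The Bach2 vector went with more Bach2 in both cell types, 121 and 135 against 11.2 and 14 CPM in Tfh and 130.4 and 157 against 24.8 and 28.9 CPM in non-Tfh cells. Cd4 was at 1076 to 1436 CPM in all libraries. Of 6 Tfh markers, the factor gene Bcl6 was at 101 to 159 CPM in Tfh and 14 to 24.1 CPM in non-Tfh libraries. Il21, Sh2d1a, Cxcr5 and Pdcd1 were also higher in Tfh libraries, and Cxcr5 and Pdcd1 encode proteins used in the sort. Icos went the other way, at 585 and 746 CPM in Tfh against 937 and 915 CPM in non-Tfh libraries with empty vector. With Bach2 Icos was at 542 and 586 against 693 and 640.5 CPM. Of other cells, 7 B cell markers summed to 2.05 to 12.5 CPM. The 5 CD8 T and NK markers summed to 75.1 to 113 CPM in Tfh and 23.9 to 36.4 CPM in non-Tfh libraries, most of it Klrb1c (9 to 93.8 CPM over all libraries) and Cd8b1 (13.1 to 20.2 CPM), with Cd8a at or below 0.763 CPM and Ncr1 at 0. The 6 stroma and endothelium markers summed to 229 to 281 CPM in Tfh and 177 to 205 CPM in non-Tfh libraries, nearly all of it Pecam1 (176 to 279.9 CPM), the other 5 each being at or below 1.01 CPM. The platelet genes Pf4 and Ppbp had 0 counts in every library, which allows up to 0.301 to 0.379 CPM per library, for counting error only.

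Among the 9 genes, Smad7 differed most between groups. It was 6.19-fold lower in the Tfh than in the non-Tfh libraries with empty vector, and averaged over the cell types it was 1.74-fold higher with the Bach2 vector. Tgfbr2 also rose with the vector over both cell types, by 1.25-fold, and with empty vector Ski and Skil were lower in Tfh cells. Tgfb1, Tgfbr1, Smad2, Smad3 and Smad4 did not pass the threshold in any of the 6 comparisons. The threshold was an adjusted p below 0.05 by the quasi-likelihood test of edgeR, adjusted by Benjamini-Hochberg over the 11475 genes tested.

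The counts of members past that threshold are set against all tested genes. With empty vector, comparing Tfh to non-Tfh cells, 3 of 9 were lower and 0 higher, where 21.9% of all genes passed (11.3% lower and 10.6% higher). With the Bach2 vector 1 of 9 was lower, where 24.4% of all genes passed (12.7% lower and 11.6% higher). The members' counts lie on either side of these shares.

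For Bach2 against empty vector, 1 of 9 rose in non-Tfh cells, where 0.871% of all genes passed (0.253% higher and 0.619% lower). In Tfh cells 0 of 9 passed in edgeR, where 1.71% of all genes did (0.549% higher and 1.16% lower). At an unadjusted p below 0.05, 4 of 9 were past there, as were 15.9% of all genes. DESeq2 called 2 of 9 members there and 326 of all 11475 genes. For the mean vector effect, which uses the same libraries again, 2 of 9 rose, where 5.27% of all genes passed (2.37% higher and 2.9% lower).

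The vector effects of Tfh and non-Tfh cells were compared by their difference. In edgeR 0 of 9 passed and 0% of all genes passed, while at an unadjusted p below 0.05 1 of 9 did (Ski) and 4.7% of all genes did, and DESeq2 and limma-voom called 0 of 9. The median log2 change of the 9 genes was 0.28 with Bach2 in Tfh cells and 0.00 in non-Tfh cells, against 0.00 over all tested genes in each. Between cell types the median was -0.25 with empty vector and -0.11 with Bach2, against 0.01 and 0.00.

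**Figure D1:**
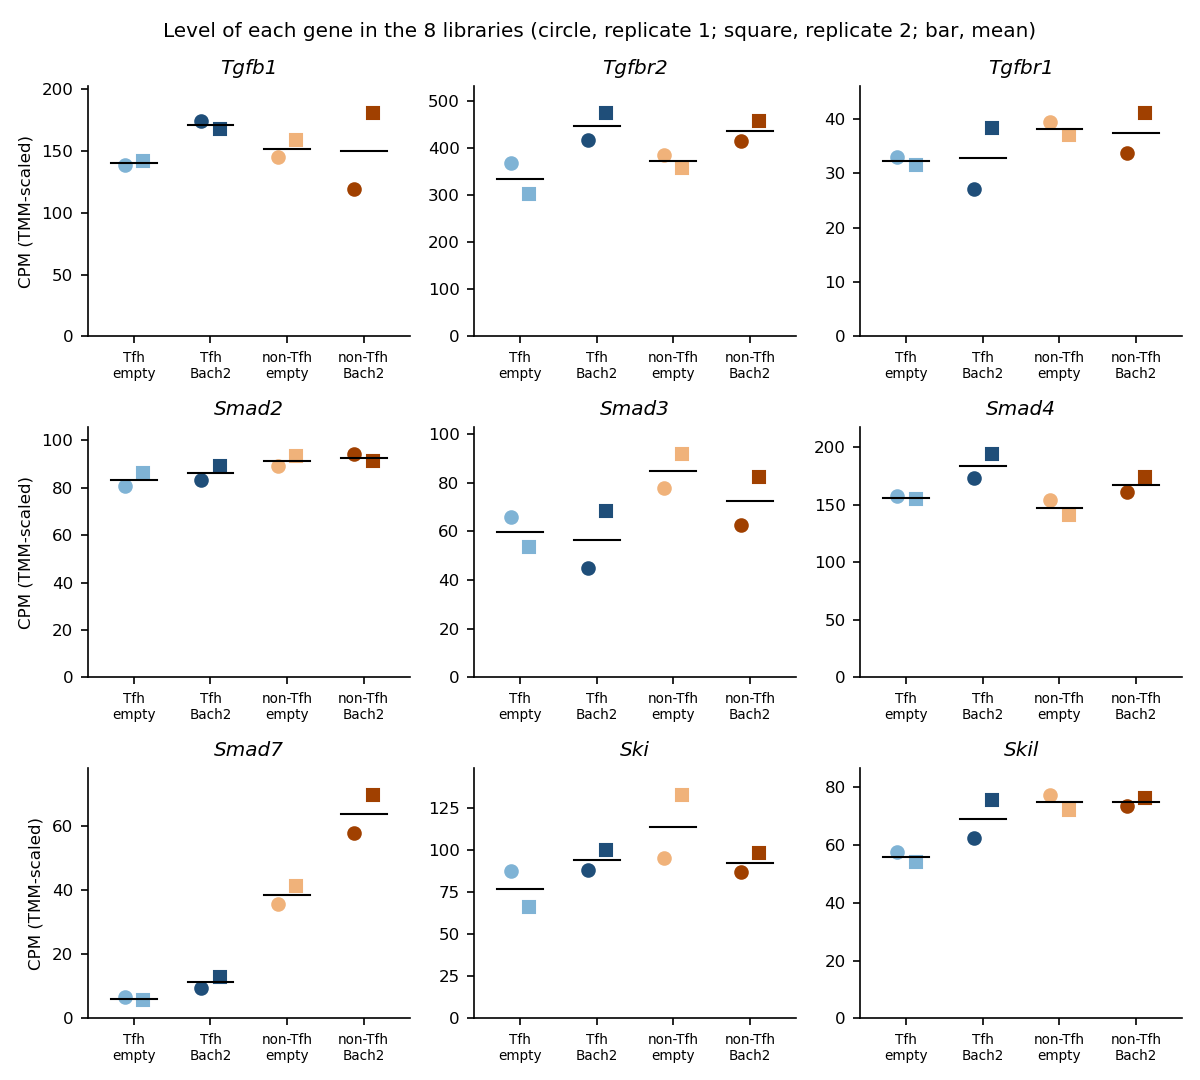
CPM of the 9 genes in the 8 libraries, with circles for replicate 1, squares for replicate 2 and bars for the group mean (n = 2), on axes that start at 0. Smad7 is the gene whose 4 groups lie apart, from 5.69 CPM in a Tfh library with empty vector to 69.7 CPM in a non-Tfh library with Bach2.

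Tgfb1 (chromosome 7, 25687002 to 25705077, GRCm38, as for all positions here) encodes the main TGF-beta ligand of lymphocytes. Its Tfh libraries were at 139 and 142 CPM with empty vector and 174 and 168 CPM with Bach2. Its non-Tfh libraries were at 145 and 159 CPM with empty vector and 119 and 181 CPM with Bach2. The Tfh groups did not overlap, while the non-Tfh libraries with Bach2 lay on either side of their controls. The log2 fold change with Bach2 was 0.28 in Tfh cells (95% interval -0.07 to 0.64, adjusted p = 0.427) and -0.02 in non-Tfh cells (-0.37 to 0.34, adjusted p = 0.989). The 2 non-Tfh libraries with Bach2 decided other values of this gene. Without replicate 1 of them the mean vector effect was 0.27 and past the threshold (adjusted p = 0.0351), against 0.13, adjusted p = 0.561 with it. Without replicate 2 the Tfh to non-Tfh difference under Bach2 was 0.52 and past it (adjusted p = 0.00505), against 0.18, adjusted p = 0.458.

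Tgfbr2 (chromosome 9, 116084293 to 116175360) encodes the receptor chain that binds the ligand, and had the highest level of the 9 genes per kilobase of exon as a mean over the 8 libraries, although in Tfh cells with empty vector Smad4 was higher (42 against 40.9 RPKM, CPM per kilobase of exon). Its Tfh libraries were at 368 and 303 CPM with empty vector and 417 and 475 CPM with Bach2. Its non-Tfh libraries were at 386 and 357 CPM with empty vector and 416 and 458 CPM with Bach2. All 4 Bach2 libraries lay above all 4 empty vector libraries. Over both cell types it rose by 0.32 on the log2 scale (SE 0.0731, adjusted p = 0.0224). Within 1 cell type the value was not past the threshold, at 0.41 in Tfh cells (SE 0.103, adjusted p = 0.0646) and 0.23 in non-Tfh cells (SE 0.103, adjusted p = 0.459). The value in Tfh cells passed with DESeq2 (adjusted p = 0.0146) and did not pass with limma-voom. The mean effect was 0.26 to 0.35 and missed the threshold when any of 5 libraries was left out, namely either non-Tfh library with empty vector or replicate 2 of any of the other 3 groups (adjusted p = 0.0577 to 0.113).

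Tgfbr2 and Ski are the members that passed a test and have an entry in RefSeq's promoter table (GRCm38.p6), so their promoters are shown, from 250 bases before to 50 bases after the start site on the gene's own strand, which is minus for both. They lie at chr9:116175314-116175613 and chr4:155222486-155222785. Capitals mark the Smad box, CAGAC or its reverse complement GTCTG.
Tgfbr2: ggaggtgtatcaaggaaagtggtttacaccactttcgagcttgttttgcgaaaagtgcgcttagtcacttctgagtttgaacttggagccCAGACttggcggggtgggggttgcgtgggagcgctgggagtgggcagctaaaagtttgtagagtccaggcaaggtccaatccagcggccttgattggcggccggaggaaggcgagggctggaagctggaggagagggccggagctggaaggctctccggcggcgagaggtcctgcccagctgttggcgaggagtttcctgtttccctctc
Ski: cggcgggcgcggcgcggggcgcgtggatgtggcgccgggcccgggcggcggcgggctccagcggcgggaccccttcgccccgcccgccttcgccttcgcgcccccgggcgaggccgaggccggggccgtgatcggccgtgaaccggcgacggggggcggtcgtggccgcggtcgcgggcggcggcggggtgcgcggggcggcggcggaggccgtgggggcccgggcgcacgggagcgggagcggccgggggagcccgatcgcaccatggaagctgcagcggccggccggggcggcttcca
The Tgfbr2 window held 1 Smad box, at position -160 from the start site, and the Ski window held 0, where 49.6% of 32851 promoter windows of that length held at least 1. The core shared by Bach and AP-1 factors, TGAGTCA or its reverse complement TGACTCA, was found in neither window on either strand, against 5.2% of all windows. G and C made up 59% of the Tgfbr2 window and 85.3% of the Ski window. An entry was matched for 5 of the 9 genes.

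Tgfbr1 (chromosome 4, 47353222 to 47414931) encodes the kinase chain that phosphorylates the Smads. In the Tfh libraries it was at 32.9 and 31.5 CPM with empty vector and 27.1 and 38.3 CPM with Bach2. In the non-Tfh libraries it was at 39.4 and 37 CPM with empty vector and 33.7 and 41.1 CPM with Bach2. In both cell types the Bach2 libraries lay on either side of their controls, and the mean vector effect was -0.01 (95% interval -0.26 to 0.24, adjusted p = 0.983). The balance of the receptor chains was read inside each library as the log2 ratio of Tgfbr2 to Tgfbr1 in RPKM. It was 3.16 and 2.94 in Tfh and 2.97 and 2.94 in non-Tfh libraries with empty vector, and 3.62 and 3.31 and 3.30 and 3.15 with Bach2. Within each cell type both Bach2 libraries had the higher ratio.

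Smad2 (chromosome 18, 76241580 to 76310963), a signal carrier that the receptor phosphorylates, varied little. Its CPM ran from 80.7 to 94.3 over the 8 libraries. The mean vector effect was 0.04 (95% interval -0.11 to 0.18, adjusted p = 0.811). Its Tfh libraries lay below its non-Tfh libraries under both vectors, by -0.13 with empty vector (-0.34 to 0.07, adjusted p = 0.376) and -0.11 with Bach2 (-0.31 to 0.10, adjusted p = 0.476). Groups that do not overlap are common here: 62.2% of all genes had none in the first of these comparisons and 59.8% in the second, against 8 of 9 and 2 of 9 members.

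Smad3 (chromosome 9, 63646767 to 63757994), the partner of Smad2 that binds DNA directly, varied more between replicates. Its Tfh libraries were at 66 and 53.5 CPM with empty vector and 45.1 and 68.2 CPM with Bach2. Its non-Tfh libraries were at 77.8 and 91.9 CPM with empty vector and 62.7 and 82.3 CPM with Bach2. The Bach2 and empty vector libraries overlapped in both cell types, and the mean vector effect was -0.15 (95% interval -0.49 to 0.18, adjusted p = 0.617). Tfh minus non-Tfh, the log2 difference was -0.50 with empty vector (SE 0.208, adjusted p = 0.124) and -0.36 with Bach2 (SE 0.209, adjusted p = 0.261). The latter was -0.68 and past the threshold without replicate 2 of the Bach2 Tfh pair (adjusted p = 0.0268), and -0.68 to -0.09 over the libraries left out. With empty vector the difference passed without either Tfh library of the Bach2 vector, neither of which enters that contrast, at -0.50 in both (adjusted p = 0.032 and 0.034).

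Smad4 (chromosome 18, 73639009 to 73703780) encodes the common partner of the receptor-activated Smads. In the Tfh libraries it was at 157 and 155 CPM with empty vector and 173 and 194 CPM with Bach2. In the non-Tfh libraries it was at 154 and 141 CPM with empty vector and 160.5 and 174 CPM with Bach2. The Bach2 libraries lay above their controls in both cell types. Vector groups did not overlap for 6 of 9 members in Tfh cells, against 44.6% of all genes, and for 3 of 9 in non-Tfh cells, against 42.2%. The mean vector effect of Smad4 was 0.21 (SE 0.0638, 95% interval 0.07 to 0.34) and missed the threshold (adjusted p = 0.0766). It passed when replicate 1 of the Bach2 Tfh pair was left out (0.25, adjusted p = 0.0459), and over all libraries left out its adjusted p was 0.0459 to 0.264.

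Smad7 (chromosome 18, 75367529 to 75395935) encodes the inhibitory Smad that competes for the receptor and brings ubiquitin ligases to it. Its Tfh libraries were at 6.61 and 5.69 CPM with empty vector and 9.54 and 13 CPM with Bach2. Its non-Tfh libraries were at 35.5 and 41.2 CPM with empty vector and 57.7 and 69.7 CPM with Bach2. No group overlapped another: both Bach2 groups lay above their controls, and every Tfh library lay below every non-Tfh library. The group means were 6.15 ± 0.654 and 11.3 ± 2.47 CPM in Tfh cells and 38.4 ± 4.05 and 63.7 ± 8.51 CPM in non-Tfh cells (SD, n = 2), with empty vector and Bach2 in that order.

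Between cell types Smad7 differed by -2.63 on the log2 scale with empty vector (SE 0.194, adjusted p = 4.99e-07) and by -2.50 with Bach2 (SE 0.178, adjusted p = 3.5e-07). Both values kept their direction and stayed past the threshold in each of 16 alternatives, at -2.75 to -2.52 and -2.74 to -2.29. In sorted bulk samples, fewer cells with the transcript and less transcript per cell cannot be told apart. The sum of 9 myeloid and dendritic markers was also lower in Tfh libraries, at 4.21 to 9.05 against 12.6 to 18.5 CPM. These genes did not all go that way. With empty vector, mean levels in Tfh and non-Tfh cells were 0.493 and 8.33 CPM for Xcr1 and 0.0501 and 1.65 CPM for Itgax. Lyz2 (4.99 and 4.41 CPM) and Flt3 (0.806 and 0.387 CPM) went the other way, and Clec9a had 0 counts in all libraries. Of 4 regulatory T cell markers, the factor gene Foxp3 (0 to 0.724 against 0.327 to 3.39 CPM) had lower group means in Tfh cells. Ctla4 was lower there too (34 to 47.2 against 67.4 to 93.8 CPM). Ikzf2 was higher, at 70.7 to 100.4 against 11.1 to 15.1 CPM, and the 4 genes summed to 117 to 139 against 79.8 to 113 CPM. The part of such cells in the Smad7 difference was not tested.

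With Bach2, Smad7 rose 1.66-fold in non-Tfh cells, by 0.73 on the log2 scale (SE 0.158, adjusted p = 0.0472). In Tfh cells the value was 0.86 (SE 0.214, 95% interval 0.40 to 1.32) and missed the threshold (adjusted p = 0.0597). Over both cell types it rose by 0.80 (SE 0.133, adjusted p = 0.00516), and this held in each of 15 alternatives (0.68 to 0.90, adjusted p up to 0.0245). The CD8 T and NK markers also summed higher with Bach2 in both cell types, at 113 and 103 against 77.9 and 75.1 CPM in Tfh and 32.9 and 36.4 against 30.4 and 23.9 CPM in non-Tfh libraries, and so did the stroma and endothelium markers in Tfh libraries, at 249 and 281 against 229 and 236 CPM. The 4 regulatory T cell markers summed higher with Bach2 in non-Tfh libraries, at 107 and 113 against 79.8 and 88.4 CPM. In Tfh libraries their sums overlapped, at 139 and 119 against 117 and 136 CPM. The part of all these markers in the vector effect was not tested. The difference between its vector effects in the cell types was 0.13, with a 95% interval from -0.44 to 0.70 (adjusted p = 0.998). The call in non-Tfh cells was lost without any 1 of the 4 non-Tfh libraries (0.59 to 0.86). In Tfh cells the value was 0.63 to 1.07 with 1 library left out. It passed there with DESeq2 (adjusted p = 0.0209) and did not pass with limma-voom.

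**Figure D2:**
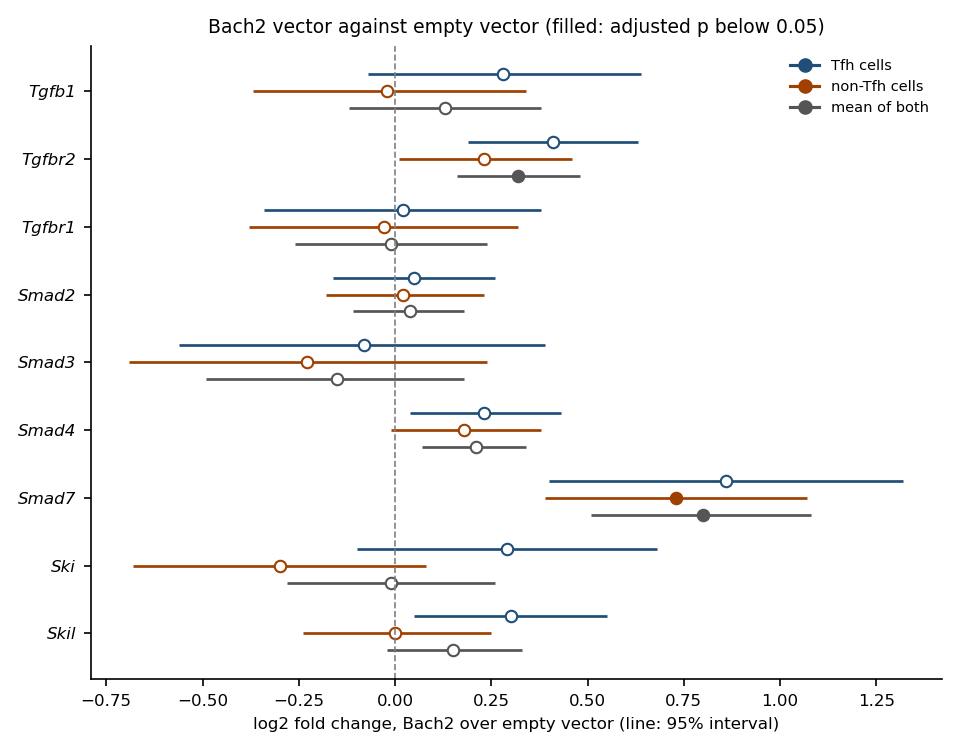
Log2 fold change of the 9 genes for Bach2 over empty vector in Tfh cells, in non-Tfh cells and as the mean of both, with 95% intervals from the fit over 8 libraries and filled points for an adjusted p below 0.05. Smad7 lies furthest right (0.73 to 0.86), and Tgfbr2 is the other gene with a filled point, for the mean.

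Ski (chromosome 4, 155154075 to 155222592) encodes a corepressor that binds SMAD complexes on DNA. Its Tfh libraries were at 87.5 and 66 CPM with empty vector and 88.1 and 100 CPM with Bach2. Its non-Tfh libraries were at 95.6 and 133 CPM with empty vector and 87.2 and 98.1 CPM with Bach2. The highest and the lowest of the 8 libraries were both with empty vector. There the Tfh level was below the non-Tfh level (-0.57, SE 0.172, adjusted p = 0.0394), while with Bach2 the difference was 0.02 (95% interval -0.36 to 0.40, adjusted p = 0.951). Without replicate 2 of the empty vector non-Tfh pair the first value was -0.31 (adjusted p = 0.288), and without replicate 2 of the empty vector Tfh pair -0.38 (adjusted p = 0.199). It passed in 8 of 16 alternatives, and without any 1 of the 4 Bach2 libraries, which do not enter it, its adjusted p was 0.0519 to 0.0595. The vector effect of Ski was 0.29 in Tfh and -0.30 in non-Tfh cells, and the difference of 0.59 between them (95% interval 0.05 to 1.13) had an unadjusted p of 0.0356 and an adjusted p of 0.998.

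Skil (chromosome 3, 31095058 to 31122577) encodes SnoN, the close relative of SKI. In the Tfh libraries it was at 57.5 and 54 CPM with empty vector and 62.3 and 75.5 CPM with Bach2. In the non-Tfh libraries it was at 77.4 and 72.2 CPM with empty vector and 73.5 and 76.4 CPM with Bach2. The Tfh libraries with empty vector were the lowest of the 8, and their level was below that of non-Tfh cells (-0.42, SE 0.115, adjusted p = 0.0174). With Bach2 the difference between cell types was -0.12 (95% interval -0.37 to 0.12, adjusted p = 0.496), and the test of the change in that difference did not pass (0.30, 95% interval -0.05 to 0.65, adjusted p = 0.998). The empty vector difference was -0.47 to -0.37 and was lost without any 1 of its 4 libraries (adjusted p = 0.0555 to 0.132).

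**Figure D3:**
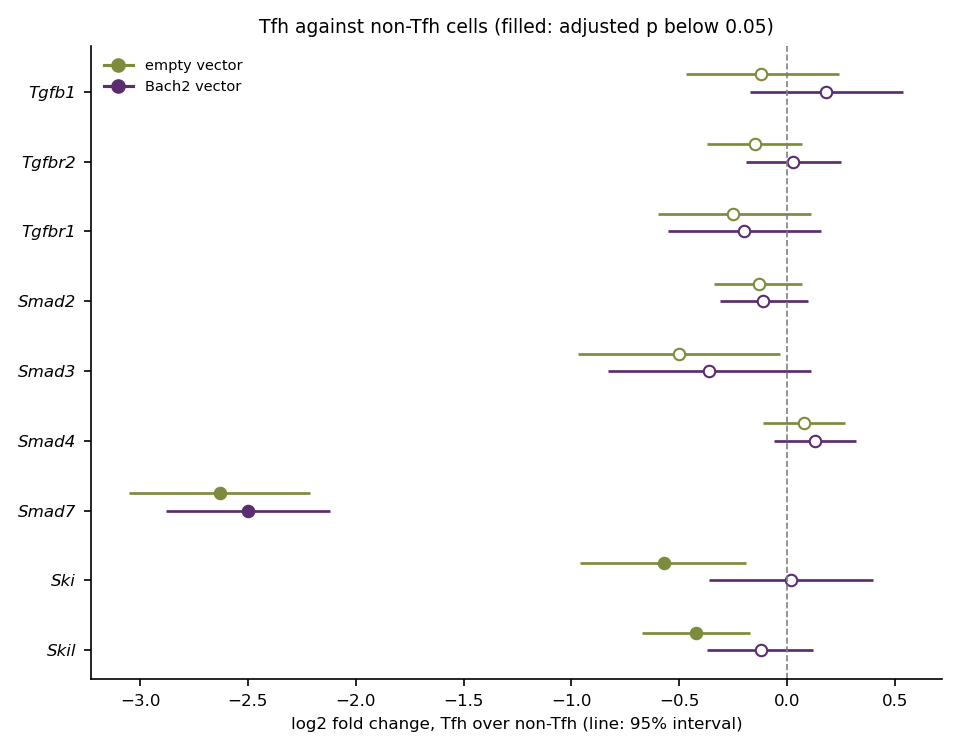
Log2 fold change of the 9 genes for Tfh over non-Tfh cells, with empty vector and with the Bach2 vector, with 95% intervals and filled points for an adjusted p below 0.05. Smad7 lies apart from the other 8 genes under both vectors (-2.63 and -2.50), and Ski and Skil have filled points with empty vector, a change with the vector that did not pass its own test.

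Per kilobase of exon the mean levels over the 8 libraries, in RPKM, ran from 48.5 for Tgfbr2, 44 for Smad4 and 30.4 for Tgfb1, through 17 for Ski, 12.3 for Smad3 and 10.1 for Smad2, to 7.08 for Skil, 6.61 for Smad7 and 5.37 for Tgfbr1. Over the libraries the ranges of neighbours overlapped for Tgfbr2 (36.9 to 58) and Smad4 (38 to 52.2), for Ski (11.9 to 23.9) and Smad3 (8.14 to 16.6), for Smad3 and Smad2 (9.19 to 10.7), for Skil (5.57 to 7.98) and Smad7 (1.26 to 15.4), and for Smad7 and Tgfbr1 (4.15 to 6.28). Tgfb1 (23.7 to 35.9) overlapped with Ski at its lower end and did not reach Smad4, and Smad2 and Skil did not overlap. Smad7 moved most in this order: its group means were 1.36 and 2.5 RPKM in Tfh cells, the lowest of the 9 genes, and 14.1 RPKM in non-Tfh cells with Bach2, where Smad3 was at 13.1.

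The balance of inhibitory and activating Smad transcripts was likewise read inside each library, as the log2 ratio of Smad7 to Smad3 in RPKM. With empty vector it was -3.03 and -2.94 in Tfh and -0.84 and -0.86 in non-Tfh libraries. With Bach2 it was -1.95 and -2.09 in Tfh and 0.17 and 0.05 in non-Tfh libraries. The 4 groups did not overlap, and both non-Tfh libraries with Bach2 held more Smad7 than Smad3 per kilobase. No test was made of this ratio, which repeats the values of Smad7.

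**Figure D4:**
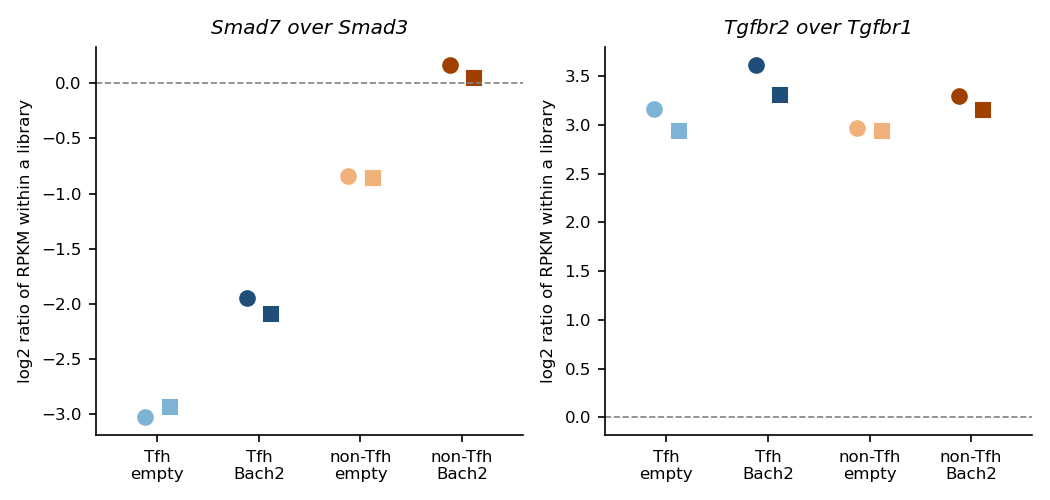
Log2 ratio of RPKM within a library for Smad7 over Smad3 and for Tgfbr2 over Tgfbr1, with circles for replicate 1 and squares for replicate 2; the dashed line is an equal level. The first ratio runs from -3.03 in a Tfh library with empty vector to 0.17 in a non-Tfh library with Bach2, and the second from 2.94 to 3.62.

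The genes whose log2 CPM followed a member most closely over the 8 libraries are given as a description. For Smad7 they were Itgax, an integrin chain of dendritic cells and some T cells (Pearson r = 0.994), Nod1, a sensor of bacterial cell wall (0.994), and Scml4 (0.993). Nod1 was at 26.5 and 28.7 CPM in Tfh cells with empty vector, 39.9 and 43.2 CPM in Tfh cells with Bach2, 75.9 and 87.9 CPM in non-Tfh cells with empty vector and 115 and 129 CPM in non-Tfh cells with Bach2. Itgax, also one of the myeloid and dendritic markers above, stayed at or below 4.31 CPM. For Tgfbr2 the closest were Coro7 (0.996), Gapvd1 (0.989) and Otud4 (0.978), and for Skil Dock2 (0.99), Atp8b2 (0.977) and Mmgt1 (0.975). For Ski they were Trim36 (0.948), Tpbgl (0.933) and Sec24a (0.92). All points share the same 8 libraries in 4 groups.

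Among 11 other genes of ligands and their activation, 5 were tested, and between cell types with empty vector 1 was higher and 2 were lower in Tfh cells, where 10.6% of all genes were higher and 11.3% lower. Furin, the protease that cleaves the TGF-beta precursor, was at 110.4 and 109 CPM in Tfh and 297 and 292 CPM in non-Tfh libraries (-1.42, SE 0.195, adjusted p = 0.0013). Nrros, which tethers latent TGF-beta, was lower by less (-0.38, adjusted p = 0.0138). Itgb8, a chain of an integrin that releases active TGF-beta, was at 2.71 and 2.91 CPM in Tfh libraries and had 0 counts in non-Tfh libraries, at least 16.9-fold higher against a floor of 3 counts over the group (adjusted p = 0.00229). With Bach2 the same 3 genes passed in the same directions, Furin at -0.98, Nrros at -0.30 and Itgb8 at 3.76. The Nrros call with Bach2 was lost in 9 of 16 alternatives (adjusted p up to 0.229, without replicate 2 of the Bach2 non-Tfh pair). That of Itgb8 rests on 5 counts in 1 non-Tfh library and 0 in the other, and was lost without replicate 1 of the Bach2 Tfh pair (adjusted p = 0.051). For the vector, 0 of 5 passed in edgeR in either cell type, and 1 in Tfh cells with DESeq2. At an unadjusted p below 0.05 there was 1 in each, where 15.9% of all genes were past in Tfh and 10.4% in non-Tfh cells. Over both cell types Itgav, the integrin chain that pairs with Itgb8, rose from 37.9 to 46.1 CPM in empty vector to 52.5 to 60.5 CPM in Bach2 libraries (0.46, SE 0.087, adjusted p = 0.00978).

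Of 11 other receptor genes 6 were tested. Tgfbr3, the coreceptor betaglycan, was higher in Tfh cells with empty vector, at 109.6 and 102 against 65.6 and 63.6 CPM (0.71, SE 0.0996, adjusted p = 0.000139), and with Bach2 (0.51, adjusted p = 0.00183). Acvrl1, a type I receptor, was lower in Tfh cells with Bach2, at 0.434 and 0.362 against 2.62 and 0.924 CPM (-2.10, SE 0.721, adjusted p = 0.0476), a call lost in 9 of 16 alternatives. For the vector 0 of 6 passed in edgeR or DESeq2 in either cell type. At an unadjusted p below 0.05 there were 2 in Tfh cells, against 15.9% of all genes, and 0 in non-Tfh cells, against 10.4%. Of 4 other Smads 2 were tested, and Smad6, the second inhibitory Smad, and Smad9, both named after their values were seen, had 0 counts in every library. Smad1, a carrier of bone morphogenetic protein signals, was at 33.3 and 22.8 CPM in Tfh and 19.8 and 19.7 CPM in non-Tfh libraries with empty vector (0.51, SE 0.174, adjusted p = 0.0498), a call lost in 11 of 16 alternatives.

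Of 24 Smad partners and modulators 23 were tested, and with empty vector 2 were higher and 1 was lower in Tfh cells, a smaller share than the 21.9% of all genes that passed. Usp4, a deubiquitinase, was higher (0.34, adjusted p = 0.00688), as was Ldlrad4, an inhibitor of the pathway (0.66, adjusted p = 0.0471), and Strap, a receptor-associated inhibitor, was lower (-0.30, adjusted p = 0.0263). The Ldlrad4 call was lost in 3 of 16 alternatives, and those of Usp4 and Strap in 2 each. With Bach2 Usp4, Ldlrad4 and Strap passed in the same directions (0.33, 1.26 and -0.32), and Tgif1, a Smad corepressor, was higher too (0.53, adjusted p = 0.02). Of all genes 24.4% passed with Bach2. The Tgif1 call was lost in 4 of 16 alternatives, and those of Usp4 and Strap with Bach2 in 2 each. The median of the 23 genes was 0.02 with empty vector and 0.06 with Bach2, against 0.01 and 0.00 over all tested genes. For the vector 0 of 23 passed in edgeR or DESeq2 in either cell type. At an unadjusted p below 0.05 there were 8 in Tfh cells, against 15.9% of all genes, and 3 in non-Tfh cells, against 10.4%. Smurf1, a ubiquitin ligase that works with SMAD7, rose over both cell types, from 19.5 to 28.9 CPM in empty vector to 31.7 to 34 CPM in Bach2 libraries (0.40, SE 0.106, adjusted p = 0.0425), a call lost in 7 of 15 alternatives.

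The branch through the kinase TAK1 was counted from 5 genes, all tested. Map3k7, which encodes TAK1, and Traf6, a ligase upstream of it, were lower in Tfh cells with empty vector (-0.31, adjusted p = 0.0244, and -0.46, adjusted p = 0.0174). Of all genes 21.9% passed there, and these calls were lost in 4 and 3 of 16 alternatives. With Bach2 Traf6 was lower (-0.57, adjusted p = 0.00385) and Tab2, an adaptor of TAK1, was higher (0.44, adjusted p = 0.0177), where 24.4% of all genes passed. The Tab2 call was lost in 3 of 16 alternatives. Tab1, another adaptor, rose over both cell types from 26.2 to 29.2 CPM to 33.5 to 39.3 CPM (0.37, SE 0.0959, adjusted p = 0.0406), a call lost in 7 of 15 alternatives. In either cell type alone 0 of 5 passed for the vector in edgeR or DESeq2. At an unadjusted p below 0.05 there was 1 in each, against 15.9% of all genes in Tfh and 10.4% in non-Tfh cells.

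Genes known to respond to TGF-beta in T cells were listed as 2 sets by the direction of that response. The lists were written from general knowledge and rest on no deposited source, so their counts describe these genes and do not measure TGF-beta signalling. Both sets were mostly lower in Tfh cells. Of 16 genes listed as induced 13 were tested, and with empty vector 7 were lower and 3 higher in Tfh cells, where 11.3% of all genes were lower and 10.6% higher (median -1.15, against 0.01 over all tested genes). Of 17 genes listed as repressed 16 were tested, and 11 were lower and 1 higher (median -1.75). With Bach2 the counts were the same, where 12.7% of all genes were lower and 11.6% higher, with medians of -1.18 and -1.76.

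In the first set the lower genes included Itgae, the integrin chain CD103 of resident T cells, at 1.7 and 2.78 CPM in Tfh and 25 and 22.5 CPM in non-Tfh libraries with empty vector (-3.42, SE 0.269, adjusted p = 8.4e-07). Gpr15, a gut homing receptor, was at 8.82 and 7.21 against 83.2 and 81.4 CPM (-3.35, SE 0.186, adjusted p = 3.93e-08). Cxcr6, a chemokine receptor, was at 63.4 and 72.4 against 636 and 709.7 CPM (-3.31, SE 0.178, adjusted p = 2.4e-06). Lower by less was Cdkn1a, the gene of the cell cycle inhibitor p21 (-1.15, adjusted p = 6.81e-05). The 3 higher genes were Nt5e (1.46, adjusted p = 0.0154), Ldlrad4 (0.66, adjusted p = 0.0471) and Id3, an inhibitor of E proteins (0.48, adjusted p = 0.00204). Nt5e was at 150 and 119 against 51.5 and 46.5 CPM, and with Bach2 its difference was 2.24 (adjusted p = 0.00243). In the second set the lower genes included Gzmb, a granzyme (-3.82, adjusted p = 6.38e-05), the interferon gamma gene Ifng (-2.12, adjusted p = 1.96e-05), the Th1 factor gene Tbx21 (-1.94, adjusted p = 0.000227) and Gata3, which drives Th2 cells (-1.30, adjusted p = 8.58e-07).

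With Bach2 the first set held 2 of 13 genes that fell and 0 that rose in non-Tfh cells. Over all genes 0.619% fell and 0.253% rose there. Gpr15 went from 83.2 and 81.4 to 32.8 and 25.2 CPM (-1.51, SE 0.162, adjusted p = 0.000479). Cdkn1a went from 47.4 and 45.9 to 21.4 and 20.4 CPM (-1.16, SE 0.148, adjusted p = 0.00193). Itgae went from 25 and 22.5 to 12.3 and 13.4 CPM without passing (-0.88, SE 0.214, adjusted p = 0.0865). In Tfh cells Cdkn1a was the 1 gene of 13 that passed (-1.18, SE 0.169, adjusted p = 0.00571). Of all genes 1.16% fell and 0.549% rose in Tfh cells. Over both cell types Cxcr6 (-0.56, adjusted p = 0.0333) fell besides Cdkn1a and Gpr15, while Id3 (0.35, adjusted p = 0.0103) and Cd101, an inhibitory receptor (0.51, adjusted p = 0.0349), rose. For this mean effect 2.9% of all genes fell and 2.37% rose. The Cd101 call was lost in 6 of 15 alternatives (adjusted p up to 0.154) and the Cxcr6 call in 5 of 15 (up to 0.167). In the second set 1 of 16 fell in non-Tfh cells, Ifng (-1.27, SE 0.198, adjusted p = 0.0128), and 1 of 16 rose in Tfh cells, Gata3 (0.45, adjusted p = 0.0465). The shares of all genes were 0.619% lower in non-Tfh and 0.549% higher in Tfh cells. The Gata3 call was lost in 8 of 16 alternatives (adjusted p up to 0.337 with 1 library left out, without replicate 2 of the empty vector Tfh pair), limma-voom among them, and the Ifng call in 3 of 16. Over both cell types 3 of 16 fell, where 2.9% of all genes did. They were Ifng (-1.05, adjusted p = 0.00422), Il12rb2, an interleukin 12 receptor chain (-0.80, adjusted p = 0.0136), and Gzmb (-1.37, adjusted p = 0.0224). The Gzmb call was lost in 3 of 15 alternatives and the Il12rb2 call in 2 of 15.

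**Figure D5:**
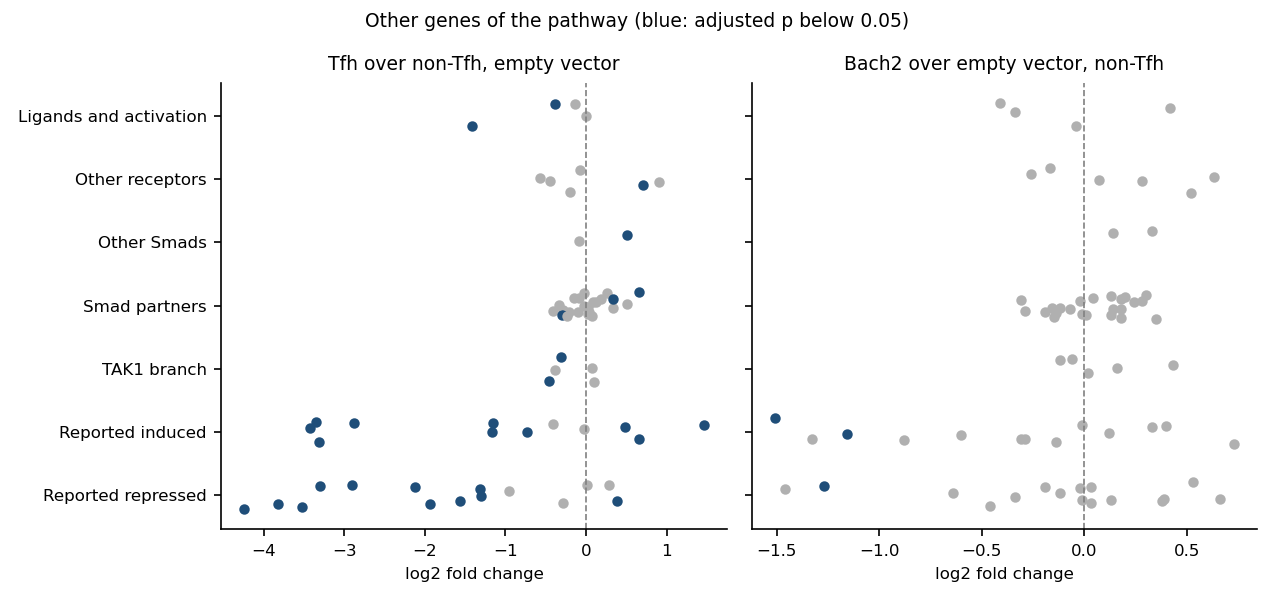
Log2 fold change of each tested gene of the 7 lists, at left for Tfh over non-Tfh cells with empty vector and at right for Bach2 over empty vector in non-Tfh cells, in blue for an adjusted p below 0.05; the vertical scatter only separates points, and genes with 3 or fewer pooled counts in a group are left out. At left the genes listed as induced and those listed as repressed both reach below -3, and at right 3 points are blue, for Gpr15, Cdkn1a and Ifng.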

How the data were processed

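RNA of 8 sorted mouse T cell samples was amplified with Smart-Seq v4 and made into libraries with Nextera XT, per the labels' protocols. The authors deposited a raw count of reads for each Ensembl gene in each library, and per the submitters' processing notes TopHat2, Bowtie2 and featureCounts were used with GRCm38/mm10. For versions, annotation release and multiply mapped reads, nothing is given in the sources used here. This kit does not mark strand, but no member shares exonic bases with another annotated gene.

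The filter on low counts, filterByExpr at a minimum count of 10 and a total of 15, kept 11475 genes. All 8 libraries were fitted with 1 coefficient per group (4 residual degrees of freedom) by edgeR 4.0.16 in R 4.3.3, with the robust quasi-likelihood test. Adjusted p-values are Benjamini-Hochberg over all tested genes, and an exact permutation test of 2 against 2 libraries cannot go below 0.333. Standard errors are the log2 fold change over the root of F, and intervals are 95%. RPKM is CPM per kilobase of merged exons. The code was tested on simulated data.

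The members and lists were chosen with earlier results of these data known. All 9 members are named. A gene of the 7 other lists is named if it passed in at least 1 of the 6 comparisons, or, where more than 8 of a list passed in 1, if among the 8 lowest p; the 3 genes most like a member were named for members that passed. Alternatives were DESeq2 1.42.0, limma-voom (limma 3.58.1), other scaling (DESeq2-type size factors, library totals), other filters, a replicate block, the compared libraries alone, and each library left out. Groups of 2 are too small for an outlier test, and none was made.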

Additional observations from a re-analysis of the deposited data

How the results depend on the processing

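Each member was recomputed under up to 16 alternatives per comparison. Of 432 values with 1 library left out, 368 kept their direction and side of the threshold, 19 lost the threshold, 10 gained it and 35 changed sign; of 414 values under the other settings the numbers were 399, 3, 11 and 1. For the vector in Tfh cells the count of members past the threshold was 2 with DESeq2 and 2 with no filter on low counts, against 0, and for Tfh against non-Tfh cells with Bach2 it was 2 with no filter, against 1. For the vector in non-Tfh cells it was 0 with at least 50 counts in 2 libraries, against 1 (Smad7, adjusted p = 0.0541). With 1 library left out the counts were 0 to 2 for the vector in Tfh cells, 0 to 1 in non-Tfh cells, 1 to 3 for the cell types with empty vector, 1 to 2 with Bach2, 0 to 0 for the difference of the vector effects and 1 to 3 for the mean vector effect; a lone library was assumed to vary like the other groups. Smad3 with empty vector passed with DESeq2 (adjusted p = 0.0462), with only the 4 libraries compared (0.0091) and with no filter (0.000636). The cause of these changes was not tested.

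Signs changed for 18 member results whose log2 value was at most 0.20 in size (adjusted p from 0.434). With limma-voom Tgfbr1 was -0.01 for the vector in Tfh cells, against 0.02. With 1 library left out the ranges were for the vector in Tfh cells -0.41 to 0.19 (Smad3), -0.25 to 0.25 (Tgfbr1); for the vector in non-Tfh cells -0.01 to 0.06 (Smad2), -0.35 to 0.25 (Tgfb1), -0.18 to 0.10 (Tgfbr1); for Tfh against non-Tfh cells with Bach2 -0.07 to 0.11 (Ski), -0.26 to 0.01 (Skil), -0.08 to 0.52 (Tgfb1), -0.46 to 0.03 (Tgfbr1), -0.06 to 0.12 (Tgfbr2); for the difference of the vector effects -0.02 to 0.07 (Smad2), -0.18 to 0.41 (Smad3), -0.03 to 0.14 (Smad4), -0.11 to 0.34 (Smad7), -0.22 to 0.28 (Tgfbr1); for the mean vector effect -0.12 to 0.12 (Ski), -0.03 to 0.27 (Tgfb1), -0.14 to 0.11 (Tgfbr1).

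Replicate numbers are shared between the groups. The correlation of same-numbered libraries' deviations was -0.004 to 0.24 over 6 pairs of groups. It was highest between Tfh and non-Tfh groups of the same vector, at 0.208 with empty vector and 0.24 with Bach2. The numbers were not taken to pair the samples, although 8 of 8 libraries correlated best with their own number. A shared source of same-numbered libraries was not tested, and the main fit leaves it out. With the replicate number as a block, 2 members passed for the vector in Tfh cells, against 0, Smad7 (0.84, adjusted p = 0.0238) and Tgfbr2 (0.41, adjusted p = 0.0345), and no other member's call changed. Over all genes the block gave 473 calls against 196 in Tfh and 207 against 100 in non-Tfh cells, and 975 against 605 for the mean effect. DESeq2 gave 326 and 161 in Tfh and non-Tfh cells and 4 for the difference of the vector effects, against 0. With no filter the counts were 736, 332, 1255 for the mean effect and 37 for the difference.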
